A study of Mus musculus with 4 samples.

Results

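The genes described here are Wap, Lalba, Glycam1, Ltf and Lao1, which encode whey and other secreted proteins of mouse milk. They were taken by symbol from the platform's probe table, where each was read by 1 probe set, so that they are 5 of the 22690 probe sets on the array and 5 of 12393 named genes. They were picked with their intensities on these arrays already known. Every value below is therefore a description and none is a test of the group. Whole mammary gland RNA of female nulliparous FVB mice was hybridised to 4 Affymetrix arrays. Wild-type littermates and mice with the MMTV-PPARd transgene, which places the nuclear receptor PPARδ under the mouse mammary tumour virus promoter, were each fed standard chow or chow with the synthetic PPARδ agonist GW501516 for 1 week. The labels give its content both as 0.005% and as 0.001%. Each group was 1 pool of RNA from 5 mice, read on 1 array, and the 4 pools are called here wild-type chow, transgenic chow, wild-type agonist and transgenic agonist. Thus there was no spread between replicates, no test was possible, and overlap between groups cannot be judged. The viral promoter is known to be active in mammary epithelium and also in other secretory epithelia, and the age of the mice is given only as matched.

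Whey is the soluble protein fraction of milk, secreted by the alveolar epithelium beside the casein micelles. Its genes are largely silent in the resting virgin gland and are switched on in pregnancy and lactation, when prolactin acting through STAT5, glucocorticoids and the ETS factor ELF5 drive alveolar differentiation. Wap is the whey acidic protein, a rodent whey protein with WAP four-disulfide core domains. Lalba, α-lactalbumin, binds the galactosyltransferase B4galt1 and turns it into lactose synthase. Glycam1 is a mucin-like glycoprotein of milk that is also made by the high endothelial venules of lymph nodes as a ligand for L-selectin. Ltf, lactoferrin, binds iron and limits bacterial growth, and is also a protein of neutrophil granules. Lao1, an L-amino acid oxidase of milk, generates hydrogen peroxide.

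The sequences just upstream of a transcript start of each of the 5 genes are shown. They were chosen because 4 of the genes had their highest values, and all 5 had high values, on the transgenic agonist array. The windows show which known elements they do and do not share. Each line gives the 250 bases before a RefSeq transcript start in GRCm38.p6, 5′ to 3′ on the strand of the gene. Capitals mark matches to the elements described after the sequences. The record of the Lalba gene extends upstream to 98482934, so that its window lies wholly inside the record. That of Wap extends to 6638654 and overlaps the last bases of its window. The windows of Glycam1, Ltf and Lao1 adjoin their gene records.
Wap (chr11:6638650-6638899, minus strand): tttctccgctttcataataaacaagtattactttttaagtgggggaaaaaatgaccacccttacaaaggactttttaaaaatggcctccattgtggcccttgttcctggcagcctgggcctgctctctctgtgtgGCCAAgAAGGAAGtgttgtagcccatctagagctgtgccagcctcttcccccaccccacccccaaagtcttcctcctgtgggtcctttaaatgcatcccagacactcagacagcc
Lalba (chr15:98482684-98482933, minus strand): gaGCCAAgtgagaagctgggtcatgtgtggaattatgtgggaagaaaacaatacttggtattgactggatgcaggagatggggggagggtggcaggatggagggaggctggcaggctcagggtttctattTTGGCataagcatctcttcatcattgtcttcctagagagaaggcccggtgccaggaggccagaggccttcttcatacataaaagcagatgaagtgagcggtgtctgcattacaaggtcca
Glycam1 (chr15:103565082-103565331, minus strand): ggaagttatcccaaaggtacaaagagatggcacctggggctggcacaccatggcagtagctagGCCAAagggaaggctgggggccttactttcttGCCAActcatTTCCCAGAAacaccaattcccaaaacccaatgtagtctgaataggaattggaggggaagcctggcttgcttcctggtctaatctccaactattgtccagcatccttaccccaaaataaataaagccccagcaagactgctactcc
Ltf (chr9:111019042-111019291, plus strand): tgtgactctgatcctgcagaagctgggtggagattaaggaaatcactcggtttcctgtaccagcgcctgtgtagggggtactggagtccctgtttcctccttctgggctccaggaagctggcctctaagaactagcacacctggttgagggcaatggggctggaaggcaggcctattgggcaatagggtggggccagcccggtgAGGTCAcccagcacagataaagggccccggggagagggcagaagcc
Lao1 (chr4:118961717-118961966, plus strand): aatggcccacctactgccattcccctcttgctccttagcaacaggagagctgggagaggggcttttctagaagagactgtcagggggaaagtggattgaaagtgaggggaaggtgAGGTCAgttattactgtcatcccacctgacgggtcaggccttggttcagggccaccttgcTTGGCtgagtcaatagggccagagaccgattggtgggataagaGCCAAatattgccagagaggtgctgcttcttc
Both strands were searched for the STAT element TTCNNNGAA, the ELF5 and ETS core AAGGAAG, the nuclear factor I (NFI) core TTGGC and its full palindrome, the nuclear receptor core AGGTCA and its direct repeat with 1 base between (DR1), the arrangement that PPAR binds with RXR, and the glucocorticoid receptor core AGAACA. The elements can overlap one another by construction, but no matches overlapped in these windows. The STAT element was found in Glycam1, which has 1 match 145 bases upstream of the start, and in 7.02% of 32851 upstream windows of the same length. The ELF5 and ETS core was found in Wap, 109 bases upstream and beside an NFI core at 115 bases, and in 8.65% of all windows. The nuclear receptor core was found in Ltf at 46 bases and in Lao1 at 135 bases, and in 14.0% of all windows. NFI cores stood in 4 of the 5 windows, with Ltf the exception, and in 41.5% of all windows. The direct repeat, the NFI palindrome and the glucocorticoid core were in none of the 5 windows, and in 0.0335%, 0.703% and 16.1% of all windows. A match is a description of letters in this window and does not show a bound site.

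**Figure D1:**
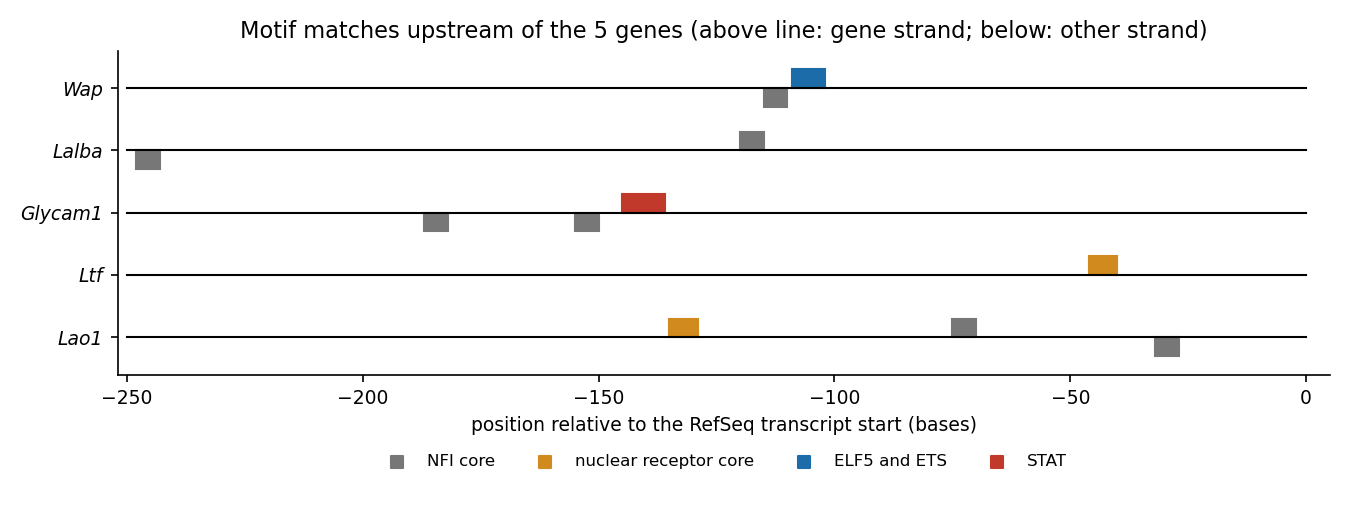
Matches to 4 elements in the 250 bases upstream of a RefSeq transcript start of each of the 5 genes. For Lalba this window lies inside the gene record. The horizontal axis is the position in bases relative to the RefSeq transcript start, blocks above a line lie on the strand of the gene and blocks below it on the other strand. The STAT block, whose element reads the same on both strands, is in Glycam1 at 145 bases and the ELF5 and ETS block in Wap at 109 bases.

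The arrays had been scaled alike, with medians of all probe sets between 137.15 and 144.0. Intensities below 20.5, the 25th percentile of all values, are treated as a floor, and a fold against a value below it is written as at least that size. Ppard read 2.1 in the wild-type chow pool and 1.5 in the wild-type agonist pool, against 1943 and 4223.5 in the transgenic chow and agonist pools. The transgenic chow array stood apart. The 6 probe sets of the BioB control transcript read 19.3 to 41.6 on it and 261.0 to 519.0 on the others, and those of Gapdh read 2986 to 4001 against 6753 to 12274. The BioC and BioD control transcripts were also lowest on it but differed less. For example, a BioC probe set read 746.3 against 1024.6 to 1245.7, and a BioD probe set read 2471.6 against 3086.0 to 3773.1. The effect of the transgene on chow, the effect of GW501516 in transgenic mice and the difference between the GW501516 effects rest on that array. The comparisons without it are the effect of the transgene on GW501516, the effect of GW501516 in wild type, and the transgenic agonist pool against the wild-type chow pool. Epithelium was present in all pools. The luminal keratin genes Krt8 and Krt18 read 5613 to 8266 and 5620 to 6790. In whole-gland RNA, a change in the number of cells of a type and a change in RNA per cell cannot be told apart.

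Wap, Lalba, Ltf and Lao1 had their highest intensity in the transgenic agonist pool, and Glycam1 had its highest in the wild-type chow pool. Wap read 29.8 in the wild-type chow, 98.6 in the wild-type agonist, 1097.9 in the transgenic chow and 11881 in the transgenic agonist pool. Both transgenic pools were high and both wild-type pools low for this gene. The range from lowest to highest was 399-fold, and the difference between the transgenic agonist and wild-type chow pools was the highest of the 7835 genes that reached 139, the median of all values, on at least 1 array. Lao1 read 92.5, 221.2, 718.6 and 10319 in the wild-type chow, transgenic chow, wild-type agonist and transgenic agonist pools, the order used below wherever 4 values are given in a row. It differed from Wap in that the wild-type agonist pool lay above the transgenic chow pool. Its range was 112-fold.

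Lalba read 624.5, 159.0, 1767.9 and 10325 in the 4 pools, a range of 64.9-fold. Ltf ranked the pools in the same way, with 679.6, 426.6, 1481.7 and 5184.6, a range of 12.2-fold. For both genes the 2 agonist pools were high and the 2 chow pools low, and the lowest value was that of the transgenic chow array. Glycam1 read 9535, 8128, 2.2 and 4206.7. The wild-type agonist pool alone was low, and it was below the floor. At their highest, the 5 genes reached between 24.6% (Ltf) and 56.4% (Wap) of the highest intensity on the same array.

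**Figure D2:**
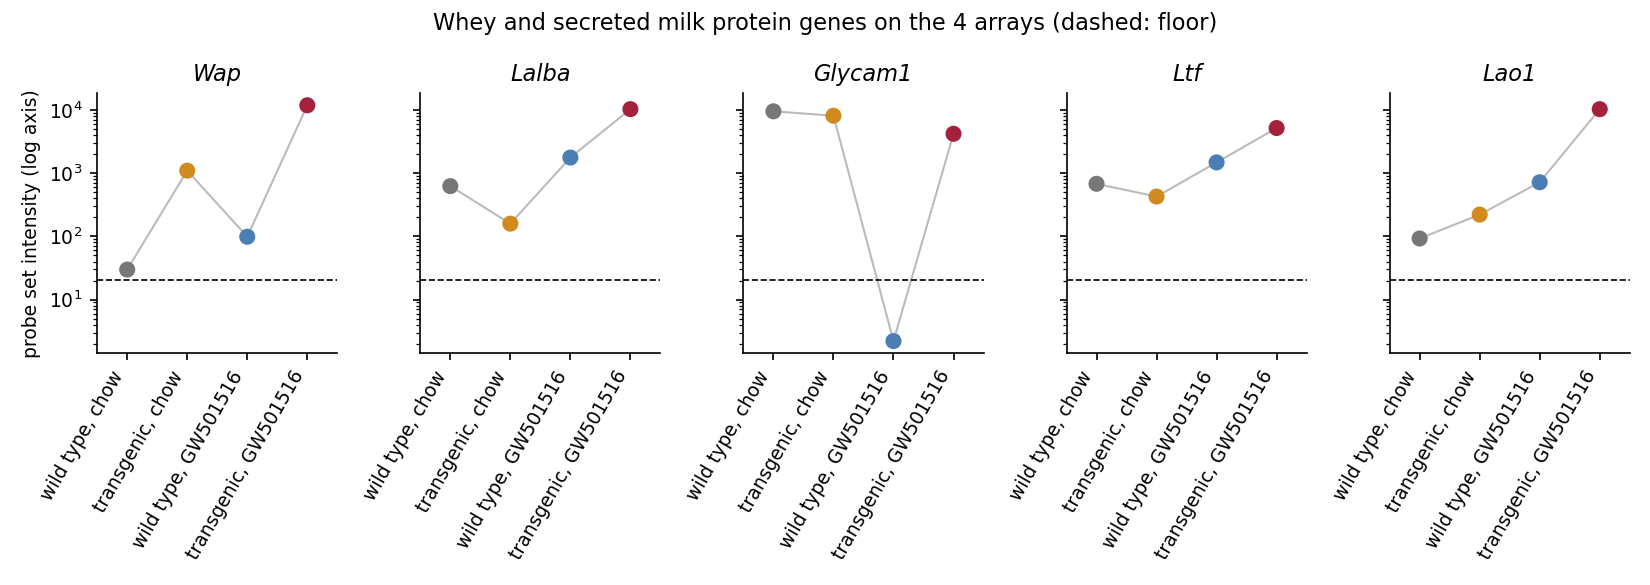
Intensity of the 5 genes on each of the 4 arrays, 1 pool of 5 mice each, on a log axis. The dashed line is the floor of 20.5, and Glycam1 in the wild-type agonist pool, at 2.2, is the single point below it.

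On GW501516 the transgene was accompanied by higher values of all 5 genes. Glycam1 was at least 205-fold, Wap 120.5-fold, Lao1 14.4-fold, Lalba 5.84-fold and Ltf 3.5-fold higher than without the transgene. All 5 passed 2-fold, as did 2.82% of all 7835 genes upward and 1.19% downward, and their median log2 difference was 3.84 against 0.0016 over all genes. Luminal epithelial markers had a median of 0.38 in the same comparison, with 0 of 14 at 2-fold, and the 5 genes lay 1.42 (Ltf) to 7.30 (Glycam1) above that median on the log2 scale. Basal markers had a median of -0.0035 with 1 of 9 at 2-fold, which was Krt14, a keratin of basal cells, at 334.9 and 2818.1. Salivary gland markers were at least 2-fold lower for 4 of 8, with a median of -2.27 and Bpifa2, a secreted salivary protein, at 3719 and 9.4. These 4 reached 139 only on the wild-type agonist array, which fixed their direction. The part of salivary tissue in the values of the 5 genes was not tested.

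On chow the transgene divided the genes. Wap was 36.8-fold and Lao1 2.39-fold higher with it, Lalba was 3.93-fold lower, and Ltf and Glycam1 were lower by less than 2-fold, at log2 differences of -0.67 and -0.23. With the floor at the 40th percentile the log2 difference of Wap was at least 3.95 in place of 5.20, and under quantile normalization that of Glycam1 turned to 0.013. Hence 2 of 5 passed 2-fold upward and 1 downward, where 5.46% and 3.7% of all genes did so, with a median of -0.23 against 0.020. Luminal markers had a median of 0.83 here, with 6 of 14 past 2-fold upward, including Epcam, an epithelial adhesion molecule, at 2588 and 5565. Relative to the luminal median, Lalba stood at -2.81 and Wap at 4.37 on the log2 scale. Skeletal muscle markers had a median of 1.46, T cell markers -1.51 and white adipocyte markers -0.47 in the same comparison, and the part of these tissues in the values of the 5 genes was not tested.

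GW501516 in wild-type mice was accompanied by higher Lao1 (7.77-fold), Wap (3.31-fold), Lalba (2.83-fold) and Ltf (2.18-fold), and by Glycam1 at least 465-fold lower. With the floor at the 40th percentile, Wap differed by a log2 value of at least 0.47 in this comparison, a bound short of 2-fold, because its value on chow then lay at the floor. The counts were 4 of 5 at least 2-fold higher, against 3.18% of all genes, and 1 lower, against 3.25%. The median was 1.50, against -0.037 over all genes and 0.30 for luminal markers. Markers of other tissues moved in the same pools. Skeletal muscle markers were at least 2-fold higher for 17 of 17, with a summed intensity of 19457 on chow and 151457 on GW501516. Salivary gland markers were at least 2-fold higher for 5 of 8, with sums of 4206 and 10724.5, among them Bpifa2 at 6.3 and 3719. Bpifa2, Smr3a, Cst10 and Dnase1 reached 139 only on the wild-type agonist array, which fixed their direction. Prol1 reached it only on the wild-type chow array and was lower, at 147.2 and 6.1. Of the 11 salivary markers on the array, 4 were below the floor on chow and 2 on GW501516. The part of muscle and of salivary tissue in the values of the 4 milk genes was not tested.

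In transgenic mice GW501516 went with larger differences than in wild type for 4 genes and a smaller one for Glycam1. Lalba was 64.9-fold and Lao1 46.6-fold higher, which were the highest and second highest of the 7835 genes, Ltf was 12.2-fold and Wap 10.8-fold higher. Glycam1 was lower, with a log2 difference of -0.95, and of -1.19, past 2-fold, under quantile normalization. This gives 4 of 5 at least 2-fold higher, against 3.98% of all genes, and 0 lower, against 4.07%, with a median of 3.60 against -0.034. The luminal median was -0.016 and turned positive with the arrays shifted to a common median, with 0 of 14 past 2-fold upward and 2 downward. Basal markers had 3 of 9 at least 2-fold lower and none higher. Skeletal muscle markers were at least 2-fold higher for 17 of 17 here too, and 8 of 9 T cell markers at least 2-fold lower. Of the latter, Cd3d, Cd3g and Cd2 reached 139 on the transgenic chow array and on no agonist array, which fixed their direction. The part of these tissues was not tested.

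The transgenic agonist pool, set against the wild-type chow pool, had Wap 399-fold, Lao1 112-fold, Lalba 16.5-fold and Ltf 7.63-fold higher, and Glycam1 lower with a log2 difference of -1.18. Upward calls at 2-fold made up 5.5% of all genes and downward calls 4.21%. Skeletal muscle markers were at least 2-fold higher for 17 of 17 here, with a median of 3.64, T cell markers lower for 8 of 9 (-3.93) and B cell markers for 4 of 4 (-4.18). The lower T and B cell markers reached 139 on the wild-type chow array and on no agonist array, which fixed their direction. The part of these tissues was not tested. With the floor at the 40th percentile the log2 difference of Wap was at least 7.38 in place of 8.64. The signed log2 difference between the GW501516 effects, transgenic minus wild type, was positive for each of the 5. It was 1.71 for Wap, 2.48 for Ltf, 2.59 for Lao1, 4.52 for Lalba and at least 7.91 for Glycam1. With the floor at the 40th percentile the value of Wap was at most 2.96. The value of Glycam1 reflects a smaller decrease, and those of the other 4 a larger increase. Among all genes 4.42% had a difference of effects of at least 2-fold upward and 5.25% downward, so that 45.7% of those past 2-fold were upward, and 55.8% with the arrays shifted to a common median.

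The caseins, the micelle proteins of milk, all had their highest intensity in the transgenic agonist pool, as 4 of the whey genes did. Csn1s1, Csn1s2a and Csn1s2b ranked the 4 pools as Wap did, Csn2 as Lao1 did and Csn3 as Lalba and Ltf did. For the transgene on chow 4 of 5 caseins passed 2-fold upward, with a median of 2.14, and on GW501516 2 of 5, with a median of 0.83. Over all genes 5.46% on chow and 2.82% on GW501516 passed it upward. In the difference of GW501516 effects, 3 caseins (Csn2, Csn1s2a and Csn1s1) were at least 2-fold lower, at -1.74, -1.31 and -1.06. Of the other 2, Csn3 was higher, at 1.06, as all 5 whey genes were. Csn1s2b has neither a value nor a direction, since both of its wild-type readings were below the floor. Csn1s1, an αs1-casein, read 2489.7, 13145, 8301.9 and 21047. Csn3, κ-casein, which caps the micelle, read 8042.7, 5263.9, 11756 and 15988 and was lowest on the transgenic chow array, as Lalba and Ltf were. Csn1s2b read 1.2, 63.8, 2.7 and 1954, with both wild-type pools below the floor. The casein Csn1s2a, at 21072, was the brightest probe set on the transgenic agonist array. Whether intensities near the top of the scale are compressed was not tested. The difference between whey genes and caseins was not tested either, since each comparison had 1 array per group.

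**Figure D3:**
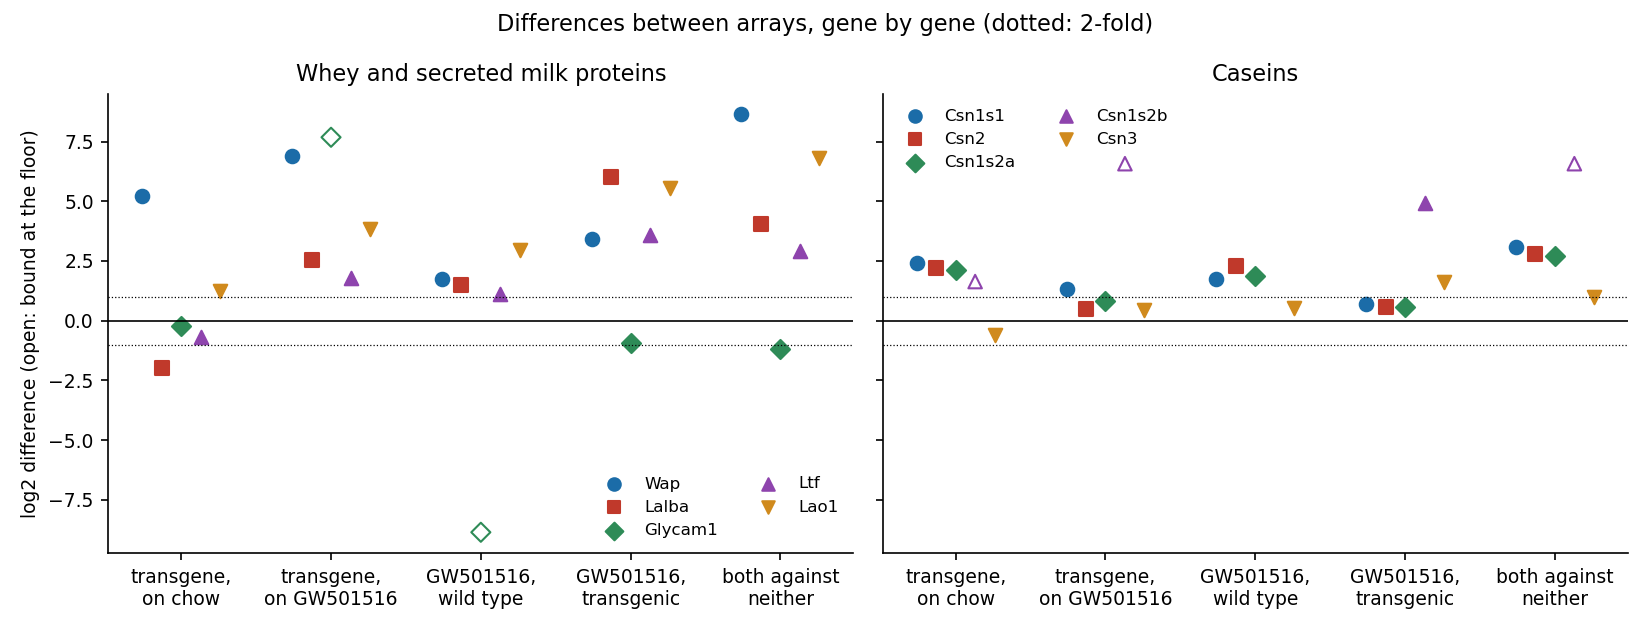
Log2 differences of the 5 whey and secreted milk protein genes (left) and the 5 caseins (right) in 5 comparisons between arrays, with dotted lines at 2-fold. Open symbols are bounds at the floor, and a casein at the floor on both arrays is not drawn. All 5 whey genes lie above the upper line for the transgene on GW501516, from 3.5-fold for Ltf to at least 205-fold for Glycam1.

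Lalba's partners in lactose synthesis differed less between arrays than Lalba. B4galt1, the galactosyltransferase, read 1465.5, 1135.6, 1225.3 and 2476.6. With the transgene it was lower on chow and 2.02-fold higher on GW501516, the same directions as Lalba. With GW501516 it was 2.18-fold higher in transgenic mice, as Lalba was higher. In wild type it was lower with GW501516, at a log2 difference of -0.26, where Lalba was 2.83-fold higher. Slc2a1, the glucose transporter GLUT1, read 851.1, 1191.8, 615.1 and 1474.3. Of 9 genes of lactose synthesis and sugar supply, these were the 2 that passed 2-fold upward for the transgene on GW501516, and none passed it downward. The shares of all genes were 2.82% and 1.19%. Over the 9 the median was 0.21.

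Relatives of Wap did not share one pattern. Of 7 other WAP four-disulfide core genes on the array, 4 reached the filter. Wfdc18, a secreted protein of mammary epithelium, read 2937.2, 10619, 3323.2 and 15607, so that it was 3.62-fold and 4.7-fold higher with the transgene and 1.13-fold and 1.47-fold higher with GW501516. Slpi, the secretory leukocyte protease inhibitor, read 1187.8, 2181.7, 883.3 and 566.9. Wfdc12 read 129.6, 485.1, 69.6 and 61.4, and both were lowest where Wap was highest. Wfdc2 stayed between 568.6 and 1009.4. The other L-amino acid oxidase gene on the array, Il4i1, was below the floor on all 4 arrays.

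Defence proteins of milk other than Ltf and Lao1 were described from a list of which 11 of 15 genes on the array reached the filter. For the transgene on GW501516, 6 of 11 passed 2-fold upward and none downward, against 2.82% and 1.19% of all genes, with a median of 1.12. Pigr, which carries IgA into milk, read 18.1, 489.5, 36.5 and 2114.7, and ranked the pools as Wap did. Saa1 and Saa2, acute-phase apolipoproteins, went from 82.5 to 2793.7 and from 31.5 to 1024.5 between the genotypes on GW501516. Lcn2, lipocalin 2, which binds bacterial siderophores, read 3140.6, 3887.8, 6474.0 and 9489.9. It was higher with GW501516 in both genotypes, by 2.06-fold and 2.44-fold.

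Because Ltf is also a neutrophil granule gene, neutrophil markers were read on the same arrays. Of 9 on the array, 3 reached the filter, and their summed intensity over all 9 was 745.4, 679.8, 383.5 and 742.8. Camp and Mmp8, which are stored in the same kind of granule as lactoferrin, were below the floor on all 4 arrays. Ngp, another granule protein, read 45.7, 39.8, 14.2 and 23.5, and Elane, neutrophil elastase, read 16.5, 7.0, 6.7 and 37.0. Among the 3 that reached the filter, S100a8, a calcium-binding protein of myeloid cells, was highest at 405.0 in the transgenic agonist pool and read 123.3 to 265.6 elsewhere. The others, S100a9 and Mmp9, were highest in the wild-type chow pool. S100a9 read 173.0, 120.1, 52.2 and 76.9, and Mmp9 read 166.6, 159.3, 112.0 and 115.4. The part of neutrophils in the values of Ltf was not tested.

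Glycam1 was set beside markers of lymph node tissue, since nodes embedded in the gland can be a second source. In wild type, GW501516 went with lower T cell markers (8 of 9 at least 2-fold lower, summed intensity 5351.6 and 526.5) and B cell markers (4 of 4, 2999.1 and 239.3). Downward calls made up 3.25% of all genes. The T cell markers Cd3e, Cd247, Cd8a, Cd8b1 and Cd5 reached the filter only on the wild-type chow array. Cd3d, Cd3g, Cd2 and the 4 B cell markers did so only on the chow arrays. The filter thus fixed the direction of these counts. Markers of high endothelial venules and lymph node stroma were at least 2-fold lower for 6 of 8, with sums of 5615.2 and 1620.9. Among the lower, the follicle chemokine Cxcl13 read 2189.1 and 708.7, and Ltb read 1948.4 and 83.1. Cr2, Fcer2a, Ltb and Ubd reached the filter only on chow arrays, which fixed their direction. The venule genes Ackr1 and Selp were not lower, at 394.1 and 399.1 and at 144.6 and 194.0. Chst4 and Fut7, the sulfotransferase and fucosyltransferase that modify Glycam1 in these venules, did not reach the filter. Chst4 read 47.4, 21.4, 9.3 and 0.2 in the 4 pools and Fut7 49.6, 9.9, 3.5 and 1.9. In the transgenic chow pool, where Glycam1 read 8128, Fut7 was below the floor and Chst4 just above it. Both were also weak in the wild-type chow pool, and the transgenic chow array was the one with low BioB controls. With the transgene on chow, 2 of 8 venule and stroma markers were at least 2-fold higher and 3 lower. Madcam1 went from 87.9 to 202.6 and Ubd from 217.2 to 1863.5, while Cxcl13 went from 2189.1 to 1032.2. Fcer2a and Ltb were the other lower genes, at 266.9 and 123.5 and at 1948.4 and 956.8. Madcam1 reached the filter only on the transgenic chow array and Fcer2a only on the wild-type chow array, which fixed their direction. Upward calls made up 5.46% of all genes in this comparison and downward calls 3.7%. The sums over the list were 5615.2 in the wild-type and 4916.4 in the transgenic chow pool. Chst2 and Gcnt1, from the same list, did not reach the filter either and read 39.5 to 69.8 and 28.3 to 41.8 over the 4 pools. In the wild-type chow and agonist pools Chst2 read 69.8 and 65.9, and Gcnt1 read 28.3 and 41.8. Between the genotypes on GW501516, Glycam1 read 2.2 and 4206.7. In the transgenic pool 1 of 8 venule and stroma markers and 1 of 9 T cell markers were at least 2-fold lower. So was 1 of 4 B cell markers, and none was at least 2-fold higher. The T cell markers Cd247, Cd8a, Cd8b1 and Cd5 were below the floor in both pools, as were Cr2 and Fcer2a of the venule and stroma list. Their difference was thereby fixed at 0 and could not pass 2-fold. The sums in the wild-type and transgenic agonist pools were 1620.9 and 1058.2 for venule and stroma markers, 526.5 and 445.8 for T cells and 239.3 and 176.3 for B cells. Madcam1, an adhesion molecule of venules, read 42.8 and 46.1, Cxcl13, a chemokine of B cell follicles, 708.7 and 209.4, Ackr1, a chemokine receptor of venules, 399.1 and 370.1, and Selp, P-selectin, 194.0 and 194.6. The part of lymph node tissue in the values of Glycam1 was not tested.

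**Figure D4:**
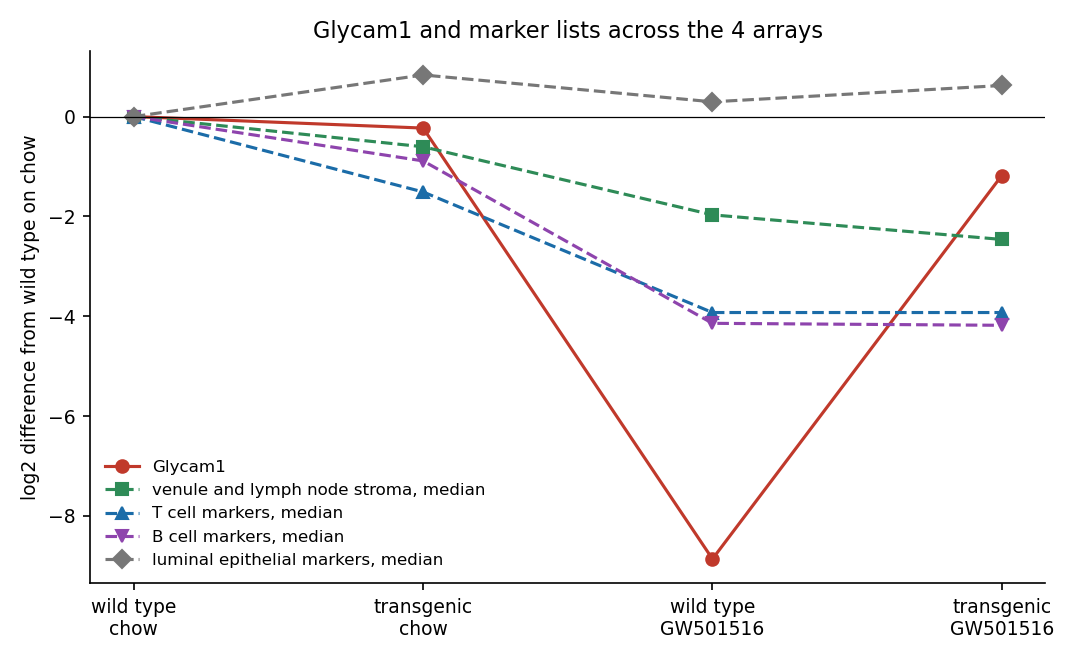
Log2 difference from wild type on chow for Glycam1 and for the median of 4 marker lists on the other 3 arrays, with values below the floor set to it. Glycam1 is at -8.86, a bound at the floor, in the wild-type agonist pool and at -1.18 in the transgenic agonist pool. The T cell median is at -3.93 on both of these arrays. It is the value of Cd247, which is below the floor on both, so that their equality is set by the floor. The B cell median is at -4.14 and -4.18 and the venule and stroma median at -1.97 and -2.46.

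Regulators known to act on whey genes were compared on the same arrays. Elf5 read 882.3, 4920.3, 1295.0 and 6524.0. It was high in both transgenic pools, as Wap was, and differed by 1.47-fold and 1.33-fold between diets. Stat5a read 745.9, 1311.2, 621.0 and 1074.2, and Stat5b stayed between 430.7 and 502.9. Id2, a helix-loop-helix inhibitor needed for alveolar growth, was 2.87-fold and 2.15-fold higher with the transgene on chow and on GW501516. Of 17 alveolar regulators and prolactin signalling genes that reached the filter, 4 passed 2-fold upward and 2 downward for the transgene on chow. Over all genes 5.46% and 3.7% did so. For the transgene on GW501516, 3 passed upward and 1 downward, against 2.82% and 1.19% of all genes. The medians on chow and on GW501516 were 0.38 and 0.22. With GW501516 in transgenic mice, where Lalba and Lao1 ranked highest among all genes, 1 was higher and 2 lower, with a median of -0.059. The shares over all genes were 3.98% and 4.07%.

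Profiles were compared by the root mean square distance between log2 values over the 4 arrays, each centred on its own mean, a description that rests on 4 points. Lalba and Ltf were the closest pair of the 5, at 0.88, and Glycam1 was the most distant, at 4.19 to 4.80 from the other 4. Among genes outside the group, Ltf was nearest to Ceacam10 (0.35), Btn1a1 (0.36) and Chil1 (0.36). Btn1a1, butyrophilin of the milk fat globule membrane, read 784.4, 892.9, 1820.6 and 6049.9. Wap was nearest to Pigr (0.70), Saa1 (0.72) and Olah (0.91), the thioesterase that sets the chain length of milk fatty acids. Lalba was nearest to Ang3 (0.98), Capn3 (1.15) and Atp2c2 (1.19), a calcium and manganese pump of the secretory pathway. Lao1 was nearest to Car6 (1.09), a secreted carbonic anhydrase known from saliva and milk, Klk11 (1.17) and Tc2n (1.24). No gene came close to Glycam1, for which the nearest were Cd3g (2.60), Igkv8-30 (2.60) and Clec4n (2.63), at distances above those of all the other genes named here.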

How the data were processed

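The authors deposited linear intensities, 1 per probe set and array and never negative. Per the labels, biotin-labelled cRNA was made by the Affymetrix protocol from RNA pooled from 5 mice per group. Scanner software, summarisation, detection calls and build are not given in the sources used here. Without the lowest and highest 2% of values, the mean was 500.17 to 500.2 on all arrays.

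Gene names came from the platform's probe table, updated by gene ID through a RefSeq table (GRCm38.p6). Of 22690, 20393 had 1 symbol (20364 matched by gene ID), 691 had several and 1606 were not listed, and 13 control probe sets with a gene symbol were left out. The probe set with the highest mean stood for each of 12393 genes. Values below the 25th percentile (20.5) were set to it before log2, and 7835 genes with 139 or more on at least 1 array were kept. All 5 members passed, also when 2 arrays were required. Each member has 1 probe set, so probe sets of a gene could not be compared. Folds are ratios of floored intensities.

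Comparisons were 5 differences between arrays and the difference of the GW501516 effects. With 1 array per group, the number of arrays limits the precision. The scaling, the floor, the filter and the choice of probe set were varied. The members and lists were chosen with earlier results of these data known, and the promoter elements with the sequences in view. Up to 4 genes of each list with large differences, defining markers, and the 3 genes nearest to each member are named, and a few other list genes were named after their values were seen. The steps were checked on simulated data. Python 3.11.15, pandas 2.3.3 and numpy 2.4.6 were used.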

Additional observations from a re-analysis of the deposited data

Results flagged for a closer look

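Lalba, Ltf and Glycam1 had transgene effects of opposite sign on the 2 diets, lower in transgenic mice on chow and higher on GW501516. With 1 pool per group this difference was not tested. The log2 difference between the effects was 4.52 for Lalba, which was 3.93-fold lower on chow and 5.84-fold higher on GW501516. It was 2.48 for Ltf, with log2 differences of -0.67 and 1.81 on chow and on GW501516. For Glycam1 it was at least 7.91, with -0.23 on chow, which became 0.013 under quantile normalization, and at least 7.68 on GW501516. The chow values rest on the array of transgenic mice on chow, whose 6 BioB control probe sets read 19.3 to 41.6 against 261.0 to 519.0 on the others. Its BioC and BioD controls differed less from the other arrays.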

How the results depend on the processing

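Over 8 alternatives (2 of scaling, 2 of the floor, 2 of the filter and 2 of the choice of probe set), 238 of 240 values of single genes kept their direction where called and their side of 2-fold. The other 2 were Wap for GW501516 in wild type with the floor at the 40th percentile (0.47) and Glycam1 for GW501516 in transgenic mice under quantile normalization (-1.19), which makes 1 of the 5 genes at least 2-fold lower there. All other counts over the 5 genes were within 1.5 times of the values given. Counts over all genes moved further with the filter, which changes how many genes are counted. For GW501516 in wild type, 255 genes were lower, 168 with the stricter filter and 394 with no filter. With no filter, 517 genes were lower in the combined comparison against 330, 149 for the transgene on GW501516 against 93, and the difference of GW501516 effects was higher for 532 against 346 and lower for 627 against 411. The bound for Glycam1 follows the floor, from a log2 difference of -7.07 to -11.4 for GW501516 in wild type. No paired analysis was possible because each group was 1 array and the labels carry no replicate numbers.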

Other observations

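Feedback inhibitors of cytokine signalling were read on the same arrays. Socs2, which prolactin and growth hormone induce through STAT5, read 2237.7 in the wild-type chow, 821.8 in the transgenic chow, 1322.1 in the wild-type agonist and 1004.8 in the transgenic agonist pool. Cish, another STAT5 target, read 486.8, 312.2, 242.3 and 240.3 in the same order. Both were highest in the wild-type chow pool, where Wap read 29.8, Lao1 92.5 and Glycam1, which was highest there too, 9535. Socs3, a further inhibitor of this family, read 540.2, 417.0, 582.9 and 264.8. Tnfsf11, the RANK ligand that progesterone induces in the gland, read 92.3 and 382.4 in the wild-type and transgenic chow pools and was below the floor in both agonist pools, where Lalba and Lao1 were higher than on chow. These genes were picked from the list of alveolar regulators after their values were seen.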
